A study of Homo sapiens with 9 samples.

Results

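The 6 genes described here, LIN28A, LIN28B, IGF2BP1, IGF2BP2, IGF2BP3 and HMGA2, encode oncofetal proteins of the LIN28 and let-7 axis, and were taken by name from the 26485 gene models of each count table. They were measured in RNA of WT HAP1 cells, an adherent near-haploid human line that derives from a chronic myeloid leukaemia line. No treatment is named in the labels. Cells were sorted, and RNA was isolated with NAxtra magnetic beads from 1 cell (3 libraries), 10 cells, 100 cells or 1000 cells (2 libraries each). By the labels the groups differed in the number of cells only, while the methods of the study give a larger volume of DNase for 1000 cells than for fewer cells, so that in comparisons with 1000 cells these cannot be told apart. The comparisons ask how the level of each gene in 1 cell relates to its level in the 6 libraries of 10 or more cells of the same line, called pools below. The labels call the libraries biological replicates, without saying whether they came from separate cultures, and p-values then measure only the spread between these libraries.

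LIN28A and LIN28B are RNA-binding proteins that hold precursors of the let-7 microRNAs back from maturation, in part by recruiting enzymes that add uridine tails. Mature let-7 in turn silences messengers that carry matches to its seed in their 3′ untranslated region, among them those of both LIN28 proteins, of IGF2BP1 and of HMGA2, an architectural chromatin protein. The IGF2BP proteins bind messengers in the cytoplasm and affect their stability, transport and translation. These genes are active in embryonic and fetal tissue and in many cancers. All but IGF2BP2 are silent or low in most adult tissues.

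All 9 let-7 family 5p microRNAs in the RefSeq table of GRCh38.p14 share 1 seed, which is carried by 11 of all 2370 mature sequences (0.464%). The following 4 show how the family differs outside the seed, with the seed (bases 2 to 8) in capitals.
hsa-let-7a-5p: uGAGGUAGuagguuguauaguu
hsa-let-7d-5p: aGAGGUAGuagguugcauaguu
hsa-let-7e-5p: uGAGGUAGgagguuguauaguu
hsa-miR-98-5p: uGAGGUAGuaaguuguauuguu

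LIN28 proteins recognise the letters GGAG in the loop of let-7 precursors. These letters stood between the arms in 8 of the 11 let-7 family hairpins for which both arms were located (72.7%), and in 60 of 739 hairpins of all kinds (8.12%). The pair below shows a hairpin with the motif, in capitals, and one without it. MIRLET7G lies at chr3:52268278-52268361 on the minus strand, and MIRLET7A3 at chr22:46112749-46112822 on the plus strand (GRCh38.p14).
MIRLET7G: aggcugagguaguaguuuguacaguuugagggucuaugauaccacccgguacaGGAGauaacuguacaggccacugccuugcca
MIRLET7A3: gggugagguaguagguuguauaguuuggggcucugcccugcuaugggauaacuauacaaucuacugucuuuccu

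A match to the seed (the letters CTACCTC) was found in the 3′ untranslated region of all 6 members, with 4 matches in LIN28B, IGF2BP1 and HMGA2 and 1 in LIN28A, IGF2BP2 and IGF2BP3. Only the transcribed strand was searched, in 1 GENCODE v29 transcript per gene. Of all 19115 genes with such a region, taken at the longest, 9.70% held a match, at 0.0625 matches per kb. The members held 1.33 per kb in HMGA2, 0.879 in LIN28B, 0.645 in IGF2BP1, 0.558 in IGF2BP2, 0.464 in IGF2BP3 and 0.306 in LIN28A. Among genes with a region of 0.8 to 1.25 times the length, at least 4 matches were found in 1 of 2397 for HMGA2, in 2 of 1566 for LIN28B and in 4 of 899 for IGF2BP1. At least 1 match was found in 16.8% of the genes of like length for LIN28A, in 11.3% for IGF2BP2 and in 12.1% for IGF2BP3. The members were chosen as genes of the LIN28 and let-7 axis, so these shares describe them and are no test. A match is a run of letters, and its use by let-7 in these cells was not measured.

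The first match of each member is shown within 30 bases, with the match and a following A, where there is one, in capitals. An A at that place marks the sites that are usually the more effective. Of the 4 matches each, 1 was followed by an A in HMGA2, 2 in LIN28B and 3 in IGF2BP1. The sites lie at chr1:26427345-26427374 (LIN28A, plus strand), chr6:105078809-105078838 (LIN28B, plus), chr17:49051058-49051087 (IGF2BP1, plus), chr3:185644216-185644245 (IGF2BP2, minus), chr7:23311791-23311820 (IGF2BP3, minus) and chr12:65963295-65963324 (HMGA2, plus), all in GRCh38.
LIN28A: agtgcacagcctattgaaCTACCTCAtttt
LIN28B: tttacccggttgcaaagtCTACCTCAtgca
IGF2BP1: tgctgtgtgcgaagtaaaCTACCTCAaggt
IGF2BP2: aaaaacacacagaagaagCTACCTCAggtg
IGF2BP3: acgtgcatttttactcaaCTACCTCAggta
HMGA2: ggcgccaacgttcgatttCTACCTCAgcag

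**Figure D1:**
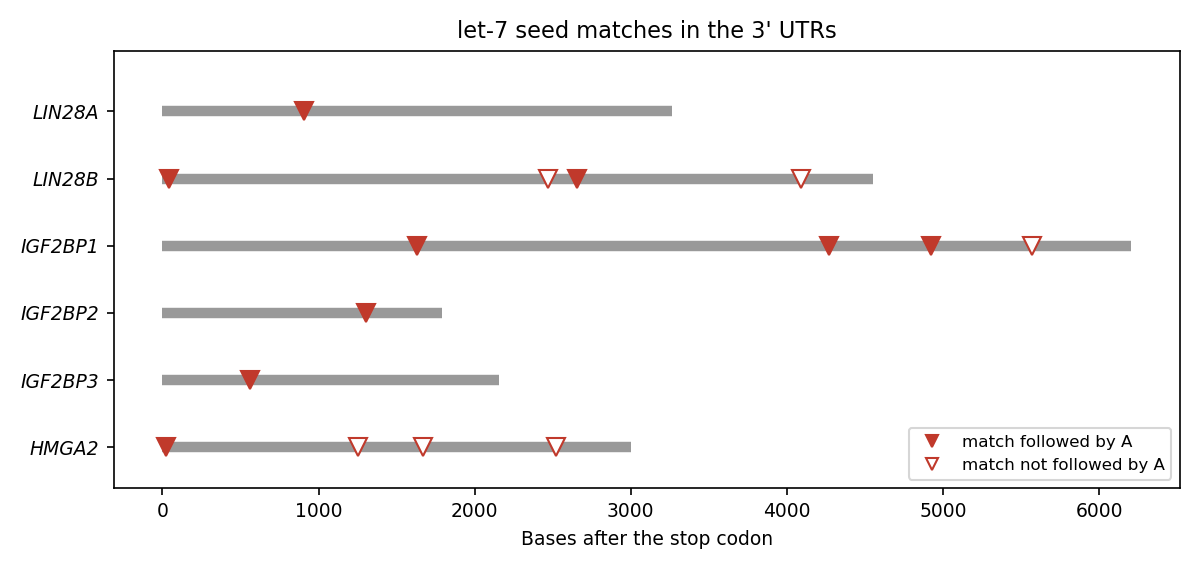
Positions of the let-7 seed matches along the 3′ untranslated region of each member, in bases after the stop codon. Grey bars give the length of the region, filled triangles a match followed by A and open triangles one that is not. HMGA2 and LIN28B each have a match close to the stop codon, at bases 21 and 44.

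The totals ranged from 42842970 to 61645865 counts per library. In the 9 libraries, 4 of 8 blood lineage markers (MPO, HBB and HBG1 among them) had no count, and the summed level of the 8 was at most 0.157 CPM, counts scaled to a library of 1000000, in single cells and 1.38 CPM in the other libraries. The blood origin of the line was thus not visible in these markers. The fibroblast markers DCN and LUM and the plasma cell marker TNFRSF17 had no count in any library either. The 7 fibroblast markers summed to 7.59 to 15.3 CPM in single cells and 10.2 to 18.2 CPM in the others. The 7 plasma cell markers summed to 42.6 to 61.9 CPM and 46.8 to 54.6 CPM, nearly all of it from SDC1.

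LIN28A was the member that differed most between the single-cell libraries: 2 of the 3 had almost no reads of it, and the third had a higher level than any pool. The gene lies at chr1:26410778-26429728 on the plus strand, with 4 exons that sum to 4014 bases. Single Cell Rep 1 had 2 counts of LIN28A, Single Cell Rep 2 had 11 and Single Cell Rep 3 had 2362. In CPM, scaled by TMM, a correction for library composition, these were 0.0386 (exact Poisson 95% interval 0.00468 to 0.140), 0.216 (0.108 to 0.386) and 45.2. The intervals cover counting error only, since the reads carry no molecular identifiers. Whether the 2 low cells held little LIN28A RNA or lost it in preparation was not tested.

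LIN28A was at 38.1 and 21.6 CPM in the 10-cell libraries, 31.4 and 29.5 CPM in the 100-cell libraries and 30.6 and 22.3 CPM in the 1000-cell libraries. The mean of these 6 libraries was 28.9 ± 6.16 CPM (SD, n = 6). Single Cell Rep 1 stood at 0.134% of this mean (0.0162 to 0.483%), and Single Cell Rep 2 at 0.746% (0.372 to 1.34%). The pools ranged from 21.6 to 38.1 CPM, and each of the 3 single cells lay outside this range, 2 below it and 1 above. In a pool, fewer cells with a transcript and less RNA per cell cannot be told apart.

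A pattern of this kind was rare at this level. Of 7410 genes with a mean of 10 to 100 CPM in the 6 pools, 3 (0.0405%) had exactly 2 single cells under 1 CPM, and 2 of these 3 (0.0270% of the class) had the third cell at 10 CPM or more. LIN28A was one of these 2. IGSF10, with 0.0386, 7.90 and 0.134 CPM in Single Cell Rep 1, 2 and 3, was among the 3 but had no single cell at 10 CPM or more. IGSF10 and both limits were chosen after the values were seen. Of 3603 genes at 1 to 10 CPM, 18.7% had exactly 2 single cells under 1 CPM, and of 2285 genes at 100 to 1000 CPM none had.

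**Figure D2:**
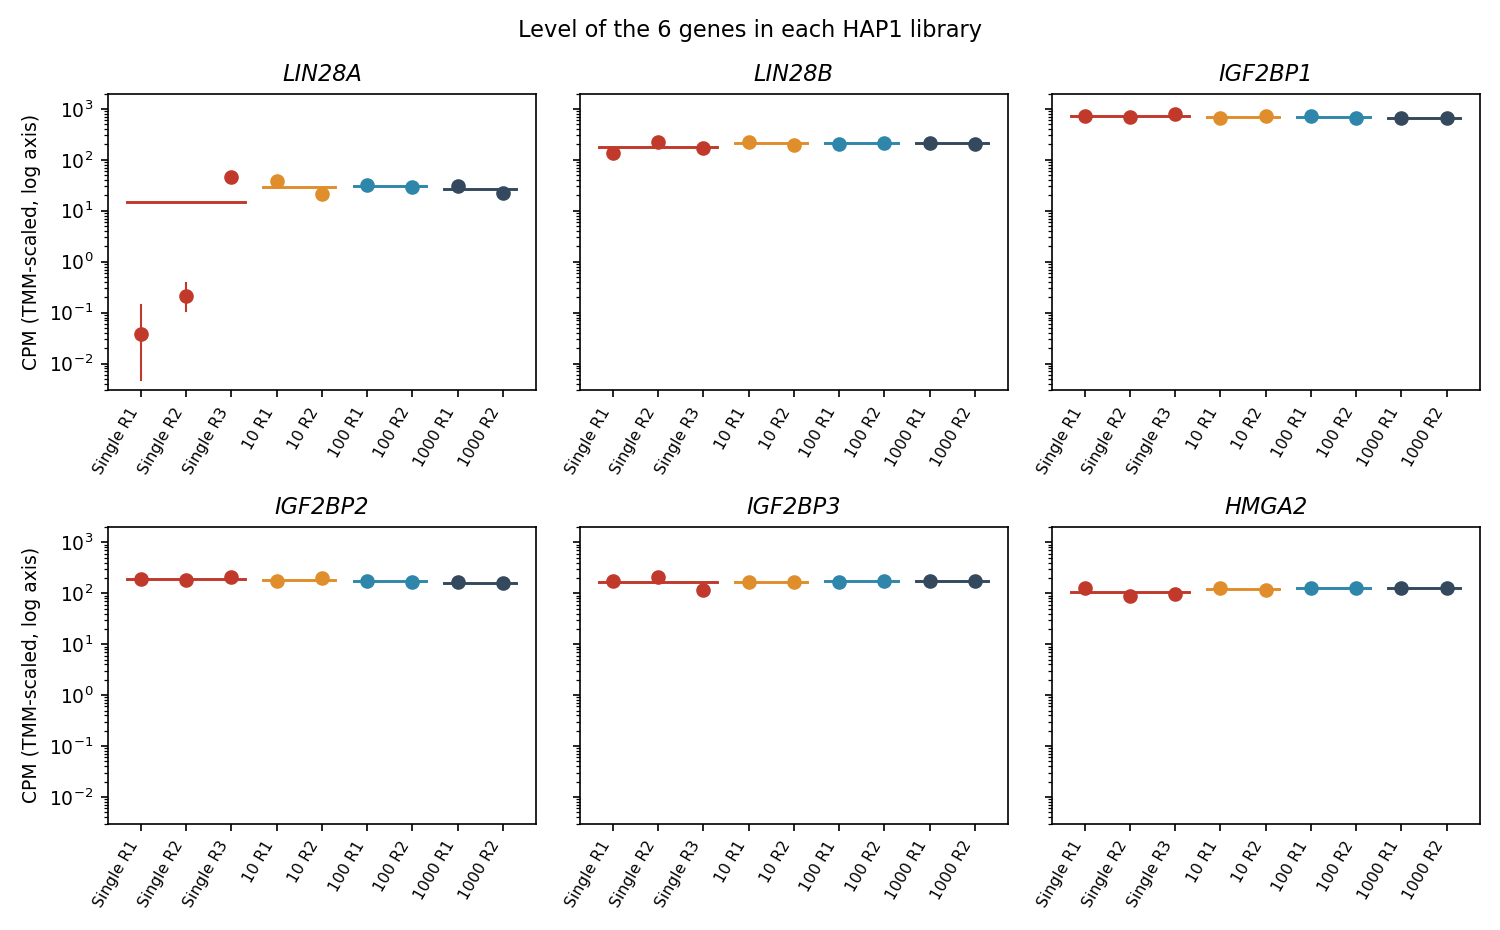
Level of each gene in every library, in TMM-scaled CPM on a log axis, with points for libraries (R for replicate), horizontal lines for group means and vertical lines for Poisson 95% intervals of the 2 low LIN28A values. LIN28A spans 0.0386 to 45.2 CPM, while the other 5 genes stay within a narrow band.

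LIN28B, the paralogue of LIN28A, was present in every library. It lies at chr6:104957048-105083332 on the plus strand, with 4 exons that sum to 5505 bases. Its level was 137, 221 and 170 CPM in Single Cell Rep 1, 2 and 3, and 226 and 199 CPM at 10 cells. It was at 206 and 214 CPM at 100 cells and at 210 and 209 CPM at 1000 cells. Single Cell Rep 1 and 3 were below all 6 pools, and Rep 2 was among them.

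On a per-length scale (reads scaled to gene length and library size, RPKM), LIN28A made up 15.7 ± 2.39% (SD, n = 6) of the summed LIN28 level in the pools, in a range from 12.8 to 18.7%. The share was 0.0386% in Single Cell Rep 1, 0.134% in Rep 2 and 26.8% in Rep 3. LIN28B therefore accounted for nearly all of the summed LIN28 level in 2 of the single-cell libraries and for 73.2% in the third. The summed LIN28 level was 24.9, 40.2 and 42.1 RPKM in Single Cell Rep 1, 2 and 3 and 45.5 ± 3.08 RPKM (SD, n = 6) in the pools. Single Cell Rep 1, with the lowest LIN28A, also had the lowest LIN28B, and its sum and that of Rep 2 were below the lowest pool (41.5 RPKM).

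IGF2BP1 had the highest level per length of the 6 members and varied little. The gene lies at chr17:48997412-49056145 on the plus strand, with 15 exons over 8769 bases. It measured 736, 680 and 784 CPM in individual cells and 672 and 724 CPM at 10 cells. It was at 722 and 667 CPM at 100 cells and at 662 and 664 CPM at 1000 cells. Single Cell Rep 1 and 3 were above all pools, by 0.11 and 0.20 on the log2 scale over the mean of the 6.

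IGF2BP2, which is the family member that stays active in many adult tissues, lies at chr3:185643739-185825039 on the minus strand, with 17 exons over 3809 bases. It measured 190, 185 and 206 CPM in individual cells and 177 and 195 CPM at 10 cells. It was at 174 and 168 CPM at 100 cells and at 163 and 161 CPM at 1000 cells. The group means lay in the order of cell number, from 193.7 ± 10.7 CPM (SD, n = 3) for 1 cell to 162.0 ± 1.75 CPM (SD, n = 2) for 1000 cells, and the ranges of 1 and 10 cells overlapped.

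IGF2BP3 lies at chr7:23310209-23470376 on the minus strand, with 15 exons over 4159 bases. It reached 173, 205 and 116 CPM in Single Cell Rep 1, 2 and 3. The pools lay between 169 and 175 CPM, with a mean of 171.4 ± 2.65 CPM (SD, n = 6). Single Cell Rep 2 was thus above and Rep 3 below all of them, so that the mean of the single cells (164.8 ± 45.1 CPM, SD, n = 3) differed little from the pools while the cells differed from each other.

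The IGF2BP family as a whole was steady. Its summed level was 171 to 176 RPKM in the single cells and 165 ± 5.84 RPKM (SD, n = 6) in the pools. In the pools IGF2BP1 made up 47.4 ± 0.76% of it, IGF2BP2 27.5 ± 1.08% and IGF2BP3 25 ± 1.13% (SD, n = 6 each). In Single Cell Rep 3, where the IGF2BP3 share was 16.3%, IGF2BP1 made up 52.2% and IGF2BP2 31.5%. Single Cell Rep 2 had the highest IGF2BP3 share, 28.1%.

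**Figure D3:**
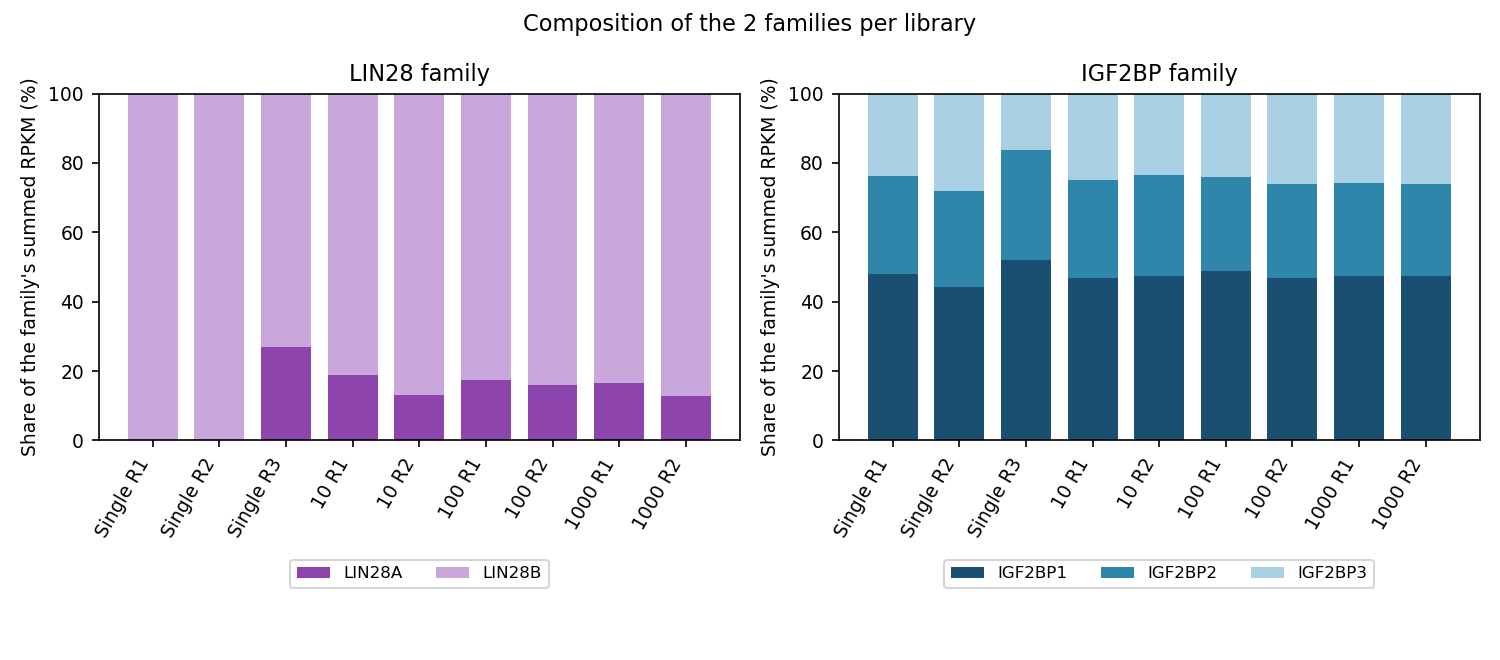
Share of each gene in the summed RPKM of its family, in percent, for each library (R for replicate). LIN28A takes 0.0386% and 0.134% in Single Cell Rep 1 and 2 and 26.8% in Rep 3, beside 12.8 to 18.7% in the pools, and the IGF2BP shares vary most among the single cells.

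HMGA2 lies at chr12:65824460-65966291 on the plus strand, with 7 exons over 5124 bases. It reached 129, 87.5 and 98.6 CPM in Single Cell Rep 1, 2 and 3. It was at 125 and 118 CPM at 10 cells, 125 and 128 CPM at 100 cells and 127 and 130 CPM at 1000 cells. Single Cell Rep 2 and 3 were below all pools, and Rep 1 was within their range.

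By level per length in the 6 pools, the order was IGF2BP1 (78.1 ± 3.36 RPKM), IGF2BP2 (45.4 ± 3.26), IGF2BP3 (41.2 ± 0.637), LIN28B (38.3 ± 1.70), HMGA2 (24.5 ± 0.791) and LIN28A (7.20 ± 1.54; SD, n = 6 each). IGF2BP3 and LIN28B overlapped in range, and the other neighbours in this order did not, although the lowest IGF2BP2 library (42.2 RPKM) lay close to the highest IGF2BP3 library. Among all 26485 models, IGF2BP1 ranked 797 and LIN28A 7441 by RPKM.

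LIN28A had the largest spread of the members among single cells. The SD of log2 CPM among the 3 cells was 4.88 for LIN28A, and 0.106% of 7535 genes in its class of level (10 to 100 CPM over the 9 libraries) had a larger one. It was 0.42 for IGF2BP3, 0.35 for LIN28B, 0.29 for HMGA2, 0.10 for IGF2BP1 and 0.08 for IGF2BP2, beside a median of 0.23 over the 2278 genes at 100 to 1000 CPM. Of these 2278 genes, 14.1% had a larger SD than IGF2BP3, and 92.2% had a larger SD than IGF2BP2. Each SD rests on 3 cells. LIN28A also had the largest SD of the members between the 10-cell libraries (0.58, beside 0.002 to 0.13) and between the 1000-cell libraries (0.32, beside 0.004 to 0.02). In its class of level, 2.12% and 0.451% of genes had a larger SD there. Between the 100-cell libraries its SD was 0.06, and 71.3% had a larger one.

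**Figure D4:**
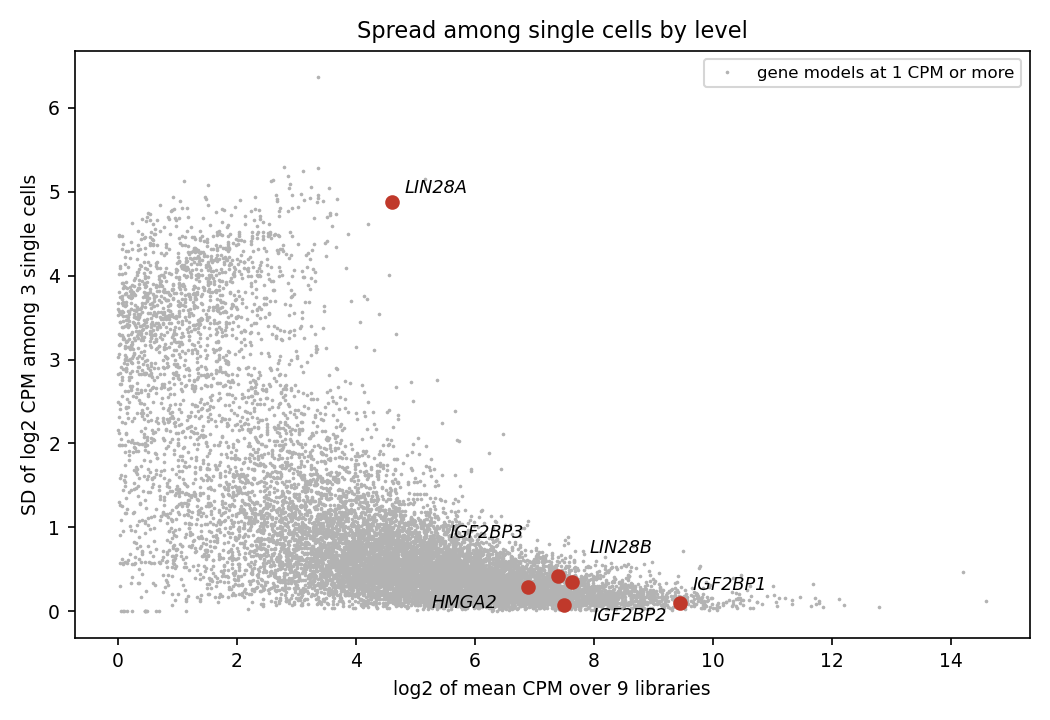
SD of log2 CPM among the 3 single cells against the log2 of the mean CPM over the 9 libraries, for gene models at 1 CPM or more (grey) and the 6 members (red). LIN28A lies at 4.88, above nearly all genes of like level, and the other members lie between 0.08 and 0.42.

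A single cell was counted as apart for a gene when its log2 CPM lay outside the range of the 6 pools and more than 1 away from their mean. By this rule LIN28A was apart in Single Cell Rep 1 (by -8.51) and Rep 2 (by -6.80), both lower, and no other member was apart in any cell. Over the 15603 genes tested, 9.32% were apart and higher and 16.2% apart and lower in Single Cell Rep 1. The shares were 8.27% and 17.2% in Rep 2, and 10.6% and 21.0% in Rep 3. The 1 member of 6 that was apart in Rep 1 and in Rep 2 was thus a share near the background, and what set LIN28A apart was the size of the difference.

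Single cells were compared with the 6 pools by edgeR's quasi-likelihood test over 15603 genes, of which 347 (2.22%) were higher and 694 (4.45%) lower at an adjusted p under 0.05. None of the 6 members passed, and 1 of them, HMGA2, had an unadjusted p under 0.05 (0.0462). LIN28A differed by -0.94 ± 1.23 (log2 fold change ± SE, adjusted p = 0.7), with the third cell above the pools. The differences were -0.26 ± 0.12 for LIN28B (adjusted p = 0.219) and -0.26 ± 0.11 for HMGA2 (adjusted p = 0.194). IGF2BP1 differed by 0.10 ± 0.06 (adjusted p = 0.393), IGF2BP2 by 0.16 ± 0.08 (adjusted p = 0.262) and IGF2BP3 by -0.06 ± 0.14 (adjusted p = 0.840). The median over the members was -0.16, beside 0.01 over all genes tested, and 4 of 6 were below 0, beside 48.8% of all genes.

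Leaving out 1 single cell changed the call of LIN28A, LIN28B and HMGA2 and the direction of IGF2BP3. Without Single Cell Rep 3 the LIN28A difference was -7.81 (adjusted p = 0.000378). Without Rep 2 the LIN28B difference was -0.46 (adjusted p = 0.00987), and without Rep 1 the HMGA2 difference was -0.44 (adjusted p = 0.00875). Without Rep 3 IGF2BP3 differed by 0.14 (adjusted p = 0.220, in a range from 0.171 to 0.892 over the alternatives). The adjusted p over all alternatives ran from 0.000378 to 0.849 for LIN28A, 0.00987 to 0.449 for LIN28B and 0.00875 to 0.349 for HMGA2. The ranges of single cells and pools failed to overlap in 0 of 6 members, beside 15.0% of all genes tested.

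**Figure D5:**
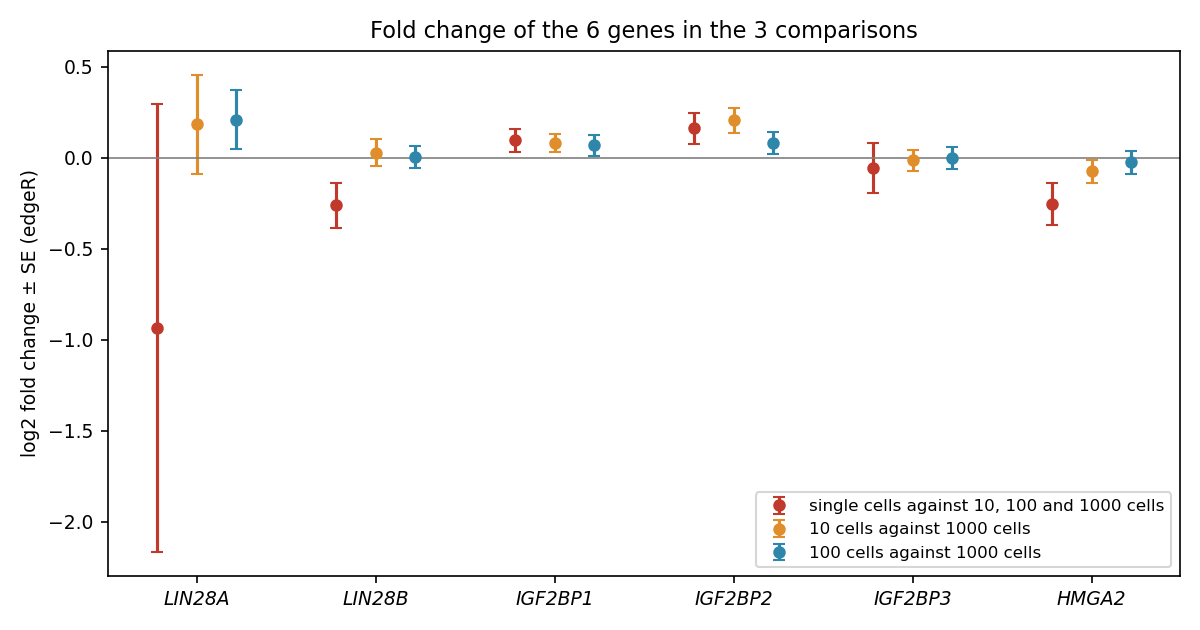
Log2 fold change of each member in the 3 comparisons, as points with bars of 1 SE from edgeR's quasi-likelihood fit. The bar of LIN28A in single cells (-0.94 ± 1.23) is the widest, and no member passes an adjusted p of 0.05 in any comparison.

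Between pools the members were nearly level. In 10 cells against 1000 cells, none of 15449 genes was called (0%) by edgeR at an adjusted p under 0.05, although 1735 had an unadjusted p under 0.05 and DESeq2 called 196. IGF2BP2 had the lowest p of the members, with 185.9 ± 13.0 against 162.0 ± 1.75 CPM (SD, n = 2 each), a log2 fold change of 0.21 ± 0.07 (SE) and an adjusted p of 0.377. LIN28A differed by 0.18 ± 0.27, and the other 4 members by -0.08 to 0.08. The libraries did not overlap for 4 of 6 members, with IGF2BP1 and IGF2BP2 higher and IGF2BP3 and HMGA2 lower at 10 cells, beside 44.5% of all genes. Without 10 Cell Rep 1, the IGF2BP2 difference was 0.27 and that of IGF2BP1 was 0.13. Without 10 Cell Rep 2, LIN28A differed by 0.54, and without Rep 1 by -0.28. These fits leave 1 library at 10 cells, which has no spread of its own, so only the differences are given.

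In 100 cells against 1000 cells, none of 15597 genes was called (0%) by edgeR, 314 had an unadjusted p under 0.05, and DESeq2 called 1. The members differed by -0.03 (HMGA2) to 0.21 ± 0.16 (LIN28A, log2 fold change ± SE), and none had an unadjusted p under 0.05. The libraries did not overlap for 2 of 6 members, IGF2BP1 and IGF2BP2, both higher at 100 cells, beside 33.2% of all genes. Without 100 Cell Rep 2 the IGF2BP1 difference was 0.12, in a fit that leaves 1 library at 100 cells. Both comparisons of pools share the 1000-cell libraries.

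The enzymes that process let-7 precursors and degrade them were expressed throughout, and of 21 tested in single cells against the pools 1 was higher and 1 lower, beside 2.22% and 4.45% of all genes. DGCR8, the RNA-binding partner of DROSHA in the nuclear cut of microRNA precursors, was at 146.2 ± 17.5 CPM (SD, n = 3) for individual cells, against 111.1 ± 9.11 CPM (SD, n = 6) in the pools, higher by 0.39 ± 0.10 on the log2 scale (SE, edgeR adjusted p = 0.0407). DDX5, an RNA helicase of the same complex, was at 964.2 ± 64.5 and 1142 ± 26.0 CPM and differed by -0.25 ± 0.06 (adjusted p = 0.0274). The median over the list was -0.03, beside 0.01 over all genes.

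ZCCHC11, the uridyltransferase that LIN28A recruits, measured 139, 181 and 173 CPM in individual cells and 166.7 ± 12.7 CPM (SD, n = 6) in the pools. DIS3L2, the exonuclease that degrades uridylated let-7 precursors, was at 62.8, 35.2 and 45.2 CPM and 46.0 ± 1.86 CPM. Neither followed the order of LIN28A over the 3 cells. These 2 genes were picked for their role and not by level. Of the others of the list with high counts, DDX17 was at 765.5 ± 60.4 CPM in single cells and 753.1 ± 18.6 CPM in the pools, and KHSRP, which promotes let-7 maturation, at 611.6 ± 68.3 and 596.6 ± 13.6 CPM.

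Of 17 let-7 genes and host genes, 10 could be tested in single cells against the pools and none passed, with a median of -0.01. Mature let-7 was not assayed in these libraries, and reads over a hairpin can come from its host transcript. MIRLET7A2, MIRLET7A3 and MIRLET7B had no count in any library. MIRLET7BHG, the host transcript of let-7a-3 and let-7b, measured 21.9, 39.2 and 29.2 CPM in individual cells, all above the pools (11.8 to 21.5 CPM), with a log2 fold change of 0.93 ± 0.26 (SE) and an edgeR adjusted p of 0.0535. Hairpin models of the list went both ways at low counts. MIRLET7A1 differed by 0.91 ± 1.10 and MIRLET7F1 by 0.66 ± 0.745 (log2 fold change ± SE, edgeR adjusted p = 0.672 and 0.648). MIRLET7G differed by -2.74 ± 1.44 (edgeR adjusted p = 0.272), and MIRLET7D, MIR98 and MIRLET7I were lower as well. MIRLET7G, MIRLET7D, MIR98 and MIRLET7I passed the filter through their levels in the pools, which favours a lower level in single cells. Their direction and p-values are therefore no evidence of a difference. MIRLET7D reached 0.0386, 0 and 0 CPM in Single Cell Rep 1, 2 and 3 and 0.162 to 0.506 CPM in the pools (edgeR adjusted p = 0.0662), and MIR98 at 0.174, 0.0392 and 0 CPM beside 0.392 to 1.43 CPM (adjusted p = 0.0946). MIRLET7I had no count in the single cells and 0 to 0.731 CPM in the pools (adjusted p = 0.0721). MIR99AHG, the host of let-7c, was at 24.5, 12.5 and 10.0 CPM beside 12.8 ± 1.04 CPM, and WDR82 at 203, 214 and 249 CPM beside 230.6 ± 6.64 CPM (SD, n = 6). HUWE1, the host of let-7f-2 and miR-98, was at 1562 ± 287 CPM (SD, n = 3) for individual cells, against 1515 ± 101 CPM in the pools.

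None of 22 let-7 target genes passed in any of the 3 comparisons, and their median difference in single cells was 0.04 on the log2 scale, beside 0.01 over all genes. HMGA1, the paralogue of HMGA2, measured 499, 451 and 389 CPM in individual cells and 414.4 ± 30.8 CPM (SD, n = 6) in the pools. CCND2, a D-type cyclin, was at 241, 159 and 81.5 CPM beside 191.7 ± 10.0 CPM. CDK6, its kinase partner, was at 193, 141 and 148 CPM beside 151.9 ± 10.8 CPM. CCND1, another D-type cyclin, named for the contrast after its values were seen, was at 5.79, 2.86 and 43.1 CPM beside 10.5 ± 2.33 CPM. In Single Cell Rep 3 CCND2 was thus at its lowest of the 3 cells and CCND1 at its highest.

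None of the 12 genes tested of 14 IGF2BP partners and client messengers passed in single cells against the pools, and their median was -0.12. YBX1, an RNA-binding partner, averaged 1274 ± 138 CPM (SD, n = 3) in individual cells, against 1458 ± 37.7 CPM (SD, n = 6), with an adjusted p of 0.0846 in edgeR's fit. HNRNPU was at 1769 ± 99.6 and 1851 ± 82.4 CPM, PABPC1, the poly(A)-binding protein, at 1238 ± 73.7 and 1330 ± 57.3 CPM, and ACTB, a classical client, at 4778 ± 253 and 4716 ± 249 CPM. The client that gave the family its name, IGF2, had at most 15 counts in any library, and H19 had at most 11.

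Among 9 other oncofetal genes, 4 could be tested and 2 were lower in single cells, beside 4.45% of all genes tested. GPC3, a cell-surface glypican, stood at 301.9 ± 16.8 CPM (SD, n = 3) in individual cells, against 376.1 ± 10.7 CPM (SD, n = 6) for the pools, without overlap, and differed by -0.32 ± 0.06 (SE, edgeR adjusted p = 0.0223). DLK1, a Notch-type ligand, had no count in any single cell and was at 0.138 to 0.911 CPM in the pools (edgeR adjusted p = 0.0247). It passed the filter through the pools alone, so its test could only come out lower. Its call therefore adds no weight to the count above. A floor of 3 counts per library, 0.0588 CPM at the highest, was 11.1-fold below the pool mean of 0.652 CPM. This floor covers counting error only, and loss of RNA in preparation was not tested. TPBG was at 46.1, 19.9 and 13.1 CPM beside 20.1 ± 1.76 CPM. SALL4, a zinc finger factor of embryonic cells, had no count in Single Cell Rep 1 and was at 2.75 and 5.17 CPM in Rep 2 and 3 beside 1.25 ± 0.35 CPM. Such a low value was common at this level, since 56% of 3603 genes at 1 to 10 CPM in the pools had at least 1 single cell under 1 CPM. AFP had at most 4 counts in any library.

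The calls in these lists did not hold in every fit. No gene was called by edgeR in single cells against the pools without 100 Cell Rep 2, without 1000 Cell Rep 1, without 1000 Cell Rep 2 or in one fit of all 9 libraries, while 2974 to 3165 genes had an unadjusted p under 0.05. Without 10 Cell Rep 1, 10 Cell Rep 2 or 100 Cell Rep 1, 669 to 739 genes were called, and DESeq2 called 3123 on all libraries. No gene of any of these lists passed in either comparison of pools.

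The 3 genes whose pattern over the 9 libraries was most like that of LIN28A were SLC9B2, a sodium-proton exchanger, PKP2, a desmosomal plakophilin, and COL19A1, a collagen. Likeness was the root mean square difference of mean-centred log2 CPM among 9874 genes with a mean of 10 CPM or more, and was 1.95 for SLC9B2, 2.01 for PKP2 and 2.22 for COL19A1. SLC9B2 measured 0.541, 5.96 and 24.9 CPM in individual cells and 14.3 to 19.2 CPM in the pools. PKP2 measured 0.753, 4.98 and 16.9 CPM in individual cells, and COL19A1 at 0.773, 13.2 and 24.0 CPM. The single cells stood in the same order for these 3 genes as for LIN28A, but in none did Single Cell Rep 2 fall under 1 CPM. The genes were chosen for likeness over these same libraries, which favours a shared order.

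The reads could tell the members from other genes over most of their length. Windows of 50 bases, the read length, that also occur in transcripts of genes elsewhere made up 1.82% of the LIN28A transcript, 1.10% of LIN28B, 0% of IGF2BP1, 8.55% of IGF2BP2, 9.47% of IGF2BP3 and 0.249% of HMGA2. Reads that map to several places were not counted, and the effect of this on the levels of IGF2BP2 and IGF2BP3 was not tested. A further 35.0% of the IGF2BP3 windows occur in MALSU1, a gene of the opposite strand at the same locus, in the GENCODE annotation. In the counted models no other gene shared exonic bases with a member. The models that overlap a member within its introns were at most at 0.689 CPM on average in single cells or pools.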

How the data were processed

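RNA of HAP1 cells was sequenced by the authors in 9 libraries. Per the labels and methods, they used FastQC 0.11.9, Trim Galore 0.6.7, HISAT2 2.2.1 on hg38, SAMtools 1.16.1 and featureCounts of Subread 2.0.6. The deposited values are whole read counts per gene model, counted by strand, with reads that map to several places left out. The annotation release is not given in the sources used here. With totals of 42842970 to 61645865 counts, values well under 1 CPM can be counted in reads. The reads carry no molecular identifiers, so in single-cell libraries such values and zeros do not give a number of RNA molecules.

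Counts were analysed in R 4.3.3 with edgeR 4.0.16 (TMM, filterByExpr, a quasi-likelihood test fitted per comparison, Benjamini-Hochberg adjusted p under 0.05) and DESeq2 1.42.0 as an alternative, and the edgeR step was tested on simulated data. Log2 CPM used a prior count of 2, and RPKM used the exonic length of the count tables. No pair of replicates agreed within sampling noise (chi-square per gene 5.84 to 285). Transcripts came from GENCODE v29, per member the one with the most bases inside the counted exons after subtracting its bases outside them.

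The members and the gene lists were chosen with earlier results of these data known. Named were all 6 members in every library, of each list the genes that passed a test and up to 4 with the highest mean CPM, and the 3 genes most like a member whose log2 CPM spanned over 2. Some genes that this rule or the lists name are not reported here.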

Additional observations from a re-analysis of the deposited data

How the results depend on the processing

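In single cells against the pools, 1041 genes were called. The count was 3123 with DESeq2, 682 without the filter, 575 at a minimum of 10 CPM, 0 in one fit of all 9 libraries (3165 with an unadjusted p under 0.05), 2077 with a replicate block and 0 to 3188 with 1 library left out. In 10 cells against 1000 cells the count was 0 in the reported test, 196 with DESeq2, 123 without the filter, 9 at a minimum of 10 CPM, 55 with a replicate block and 13 to 4721 with 1 library left out. In 100 cells against 1000 cells it was 0, 1, 31, 0 and 20 in the same order, and 3 to 4951 with 1 library left out. Where a library left out leaves an arm with 1 sample, that sample is assumed to vary like the other group, and the cause of these shifts was not tested.

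The replicate numbers did not pair the libraries (correlations of deviations -0.079 to 0.030 over 13470 genes). With the replicate block LIN28A was at -7.77 (edgeR adjusted p = 0.00109) and IGF2BP3 at 0.14 in single cells against the pools. The number 3 exists among single cells only, so the block removes that cell from the contrast.

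With 1 library left out, the direction of some members turned. IGF2BP3 in single cells against the pools ranged from -0.247 (without Single Cell Rep 2) to 0.14 (without Rep 3). In 10 against 1000 cells LIN28A ranged from -0.276 to 0.535 (without 10 Cell Rep 1 and Rep 2; -0.034 without 1000 Cell Rep 2) and LIN28B from -0.072 to 0.114 (without 10 Cell Rep 1 and Rep 2). In 100 against 1000 cells LIN28A ranged from -0.005 to 0.453 (without 1000 Cell Rep 2 and Rep 1), LIN28B from -0.028 to 0.034 (without 100 Cell Rep 2 and Rep 1; -0.002 without 1000 Cell Rep 2) and IGF2BP3 from -0.034 to 0.024 (without 100 Cell Rep 2 and Rep 1; 0.008 without 1000 Cell Rep 2). The SD among single cells of each member, and the members apart in each single cell, moved by less than the spread between replicates with a prior count of 0.5, other size factors or libraries thinned to the smallest total.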
